A study of Mus musculus with 16 samples.

Results

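Kidney transcripts of 5 temperature-responsive genes were followed on 2-colour spotted cDNA arrays: Hspa1a, Hspa8, Dnajb1 and Hsph1, which encode cytosolic chaperones of the heat shock response, and Cirbp, which encodes the cold-inducible RNA-binding protein. They were chosen by their measured ratios on these same 16 arrays, as 4 heat shock genes and 1 cold-inducible gene whose values appeared to run against each other, so their own values are given as a description and carry no p. Each was read by 1 probe annotated to that gene alone, and the 5 genes are 5 of the 6191 genes that had enough values to be tested. The arrays compared the right kidneys of 4 single Pept2 knockout males (K1, K2, K3 and K4; Pept2-/-, with Slc15a2 the gene for the kidney peptide transporter PEPT2) with 1 RNA pool of the right kidneys of 5 wild-type mice (W1 to W5; Pept2+/+). Both genotypes were born to parents of 1 Pept2+/- line, with C57BL/6 and 129Sv mixed in its background, and kidneys were taken at 88 (± 2) days of age from male mice killed between 8 and 10 in the morning. The allele that disrupts the gene is not described in the sources used here. Each knockout mouse was hybridised on 4 arrays, numbered 1 to 4, with its RNA in channel 2 on arrays 1 and 3 and in channel 1 on arrays 2 and 4. The pool was 1 sample, so no spread between wild-type mice could be measured.

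Heat shock genes are switched on when unfolded proteins free the transcription factor HSF1, which binds alternating GAA and TTC units in their promoters. Hspa1a encodes the stress-inducible Hsp70, Hspa8 its constitutive relative Hsc70, Dnajb1 a J-domain partner that stimulates the ATPase of Hsp70, and Hsph1 the nucleotide exchange factor Hsp110. Cirbp binds RNA through 1 recognition motif and is induced by mild cooling. In mouse liver its transcript and those of heat shock genes are known to follow the daily rhythm of body temperature in opposite phases.

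Promoter windows are shown because heat shock genes share this known regulator. Each window holds 250 bases before and 30 after a RefSeq gene start (GRCm38.p6), and no window of Hspa8 was used here. The capitals mark 2 alternating units, spelled GAANNTTC or TTCNNGAA, and any further unit that continues them. Each 2-unit pattern, with N for any base, reads the same on both strands, and a 3-unit motif holds both 2-unit motifs, overlapping.

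Hspa1a, chr17:34972127-34972406, minus strand: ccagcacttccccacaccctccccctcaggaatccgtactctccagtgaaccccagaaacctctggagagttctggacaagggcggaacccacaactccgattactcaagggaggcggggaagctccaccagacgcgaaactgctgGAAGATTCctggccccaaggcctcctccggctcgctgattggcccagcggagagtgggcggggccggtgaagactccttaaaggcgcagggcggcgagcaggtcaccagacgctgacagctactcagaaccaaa

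Hsph1, chr5:149636286-149636565, minus strand: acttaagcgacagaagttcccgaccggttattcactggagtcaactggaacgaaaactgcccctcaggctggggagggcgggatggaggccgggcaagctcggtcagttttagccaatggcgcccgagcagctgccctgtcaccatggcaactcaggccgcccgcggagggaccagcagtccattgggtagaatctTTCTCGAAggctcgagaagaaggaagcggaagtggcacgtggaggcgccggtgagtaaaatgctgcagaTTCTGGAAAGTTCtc

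Dnajb1, chr8:83607925-83608204, plus strand: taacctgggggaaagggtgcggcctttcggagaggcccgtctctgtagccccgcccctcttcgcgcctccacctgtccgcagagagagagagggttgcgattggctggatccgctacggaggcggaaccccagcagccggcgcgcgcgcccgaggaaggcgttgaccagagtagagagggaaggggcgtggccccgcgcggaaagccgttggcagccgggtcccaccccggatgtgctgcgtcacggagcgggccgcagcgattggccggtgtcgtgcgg

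Cirbp, chr10:80167589-80167868, plus strand: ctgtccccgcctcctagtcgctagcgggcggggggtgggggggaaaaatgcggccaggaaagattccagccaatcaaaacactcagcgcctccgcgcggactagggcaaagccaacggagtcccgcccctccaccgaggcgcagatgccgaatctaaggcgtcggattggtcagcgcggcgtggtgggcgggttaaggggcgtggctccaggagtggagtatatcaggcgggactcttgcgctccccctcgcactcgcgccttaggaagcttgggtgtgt

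Counted from 1 at the 5′ end, the window of Hspa1a held a 2-unit motif at positions 147 to 154. The window shown for Hsph1 held one at 197 to 204 and a 3-unit motif at 266 to 278, after the gene start. The other window listed for Hsph1 held the same 2-unit motif, at its positions 218 to 225, and no 3-unit motif. Neither window listed for Dnajb1 and neither window listed for Cirbp held such a run of letters. Of all 32851 windows of this length, 14.2% held a 2-unit motif and 0.563% a 3-unit motif. These matches describe letters in a window and show no binding.

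Each deposited value is a log2 ratio between an array's channels, and the labels do not name the numerator. Slc15a2 set the sign: with the values read as channel 1 over channel 2 and turned to knockout over wild type, it lay between -3.77 and -1.45 on the 16 arrays, with -2.17 in K1, -2.74 in K2, -2.81 in K3 and -2.33 in K4. This direction is the likely one, since a disrupted gene usually loses transcript, and under the opposite reading each "above the pool" becomes "below the pool", while the opposition between genes stays as it is. An array carried values for 50.2% to 91.1% of the 20205 probes. Between arrays of 1 mouse the median r over probes was 0.25 in the same orientation and 0.11 in opposite orientations. Between arrays of different mice these were 0.17 and 0.04. Array 3 of K3 and array 1 of K4, of different mice, correlated at an r of 0.62, against 0.53 at most between arrays of 1 mouse. The mean difference between Cirbp and the heat shock genes, their r and the count of genes between mice are therefore given without this pair too. Other results are not given without it. All values below are log2 ratios of knockout over pool after each array was centred on its median, and the number of arrays and mice limits their precision.

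The inducible Hsp70 gene Hspa1a was measured on 13 of 16 arrays. Its ratio was 0.24, 0.48 and 0.16 on arrays 1 to 3 of K1, -0.41 and -0.61 on arrays 2 and 3 of K2, -0.79, -0.67, -1.39 and -0.70 on the arrays of K3, and -0.44, -0.11, -0.62 and -0.35 on those of K4. Every measured array of K1 was above the pool and every one of the other mice below it. By mouse the value was 0.34 in K1, -0.51 in K2, -0.89 in K3 and -0.38 in K4, which puts K1 2.34-fold above K3. Its near-identical neighbour Hspa1b had no probe of its own here, and a spotted cDNA need not tell the pair apart.

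Dnajb1, the J-domain partner, also stood highest in K1 and lowest in K3, with K2 and K4 in the other order than for Hspa1a. It stood at 0.33, 0.13, 0.42 and 0.63 on the arrays of K1, 0.28, -0.23, -0.39 and -0.56 on those of K2, -0.94, -0.79, -0.77 and -0.46 on those of K3, and -0.19, -0.51, -0.42 and -0.15 on those of K4. K1 lay above the pool on all its arrays, K3 and K4 below it on all of theirs, and K2 on both sides. The values by mouse were 0.38, -0.23, -0.74 and -0.32 for K1 to K4, so that K1 was 2.16-fold above K3.

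Hsph1, the exchange factor, spanned a narrower range. Its ratio was 0.18, -0.16, 0.01 and 0.42 in K1, -0.08, -0.19, -0.20 and -0.22 in K2, -0.58, -0.60, -0.36 and -0.63 in K3, and -0.37, -0.63, -0.51 and -0.48 in K4. K2 was slightly below the pool throughout and K3 and K4 overlapped each other. By mouse it stood at 0.11, -0.17, -0.54 and -0.50 for K1 to K4, and K1 was 1.58-fold above K3.

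Hspa8, the constitutive member, was near the pool in K1 and lowest in K4. Its 15 values were 0.00, -0.10, 0.04 and 0.12 in K1, 0.00, -0.15, -0.27 and -0.16 in K2, -0.36, -0.64, -0.44 and -0.68 in K3, and -0.50, -0.97 and -0.70 on arrays 1 to 3 of K4. K3 and K4 overlapped, and no array of either reached the range of K1 or K2. The values by mouse were 0.02, -0.14, -0.53 and -0.79 for K1 to K4.

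Cirbp was highest where the chaperone genes were low. Its ratio was 0.09, -0.47, -0.12 and 0.44 in K1, -0.09, 0.37, 0.38 and 0.32 in K2, 1.21, 0.95, 0.90 and 1.66 in K3, and 0.45, 0.48, 0.58 and 0.90 in K4. K3 and K4 were above the pool on every array, K1 lay on both sides of it, and K3 and K4 met at 0.90. By mouse it stood at -0.01 in K1, 0.25 in K2, 1.18 in K3 and 0.60 in K4, which puts K3 2.29-fold above K1 and 2.27-fold above the pool.

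**Figure D1:**
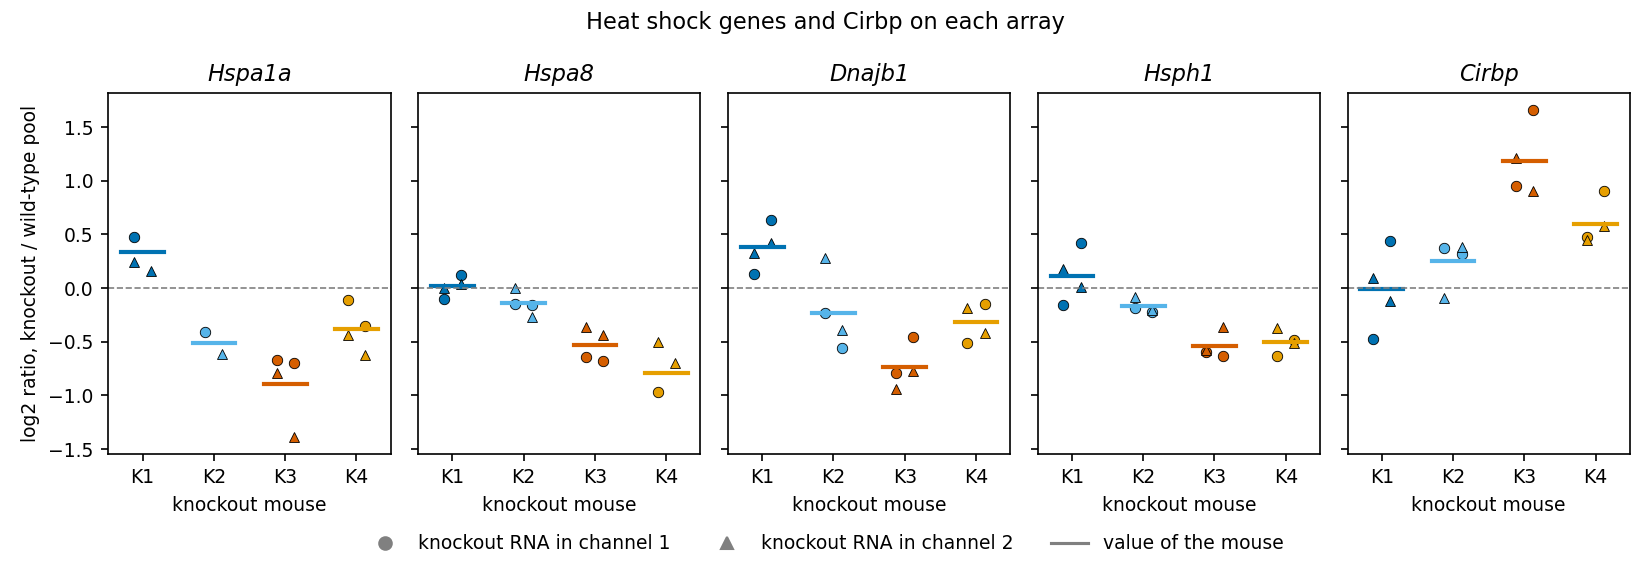
Log2 ratio of knockout kidney over the wild-type pool (vertical axis) for the 5 genes on each array, by knockout mouse. Circles are arrays with knockout RNA in channel 1, triangles those with it in channel 2, the thick line is the value of the mouse and the dashed line the pool. Dnajb1 ran between 0.38 in K1 and -0.74 in K3, and Cirbp between -0.01 and 1.18 in the same mice.

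Set side by side, the mean of the 4 heat shock genes and Cirbp ranked the mice in exactly reversed order. The heat shock mean was 0.21 in K1, -0.26 in K2, -0.67 in K3 and -0.49 in K4. Cirbp minus this mean was -0.23 in K1, 0.51 in K2 and 1.86 in K3, with K4 between K2 and K3, or 0.81 ± 0.88 (SD, n = 4 mice). K1 was thus the 1 mouse with the chaperone genes above Cirbp relative to the pool, and K3 the one with the widest gap. On its 4 arrays the gap in K3 was 1.87, 1.63, 1.64 and 2.28, and in K4 0.82, 1.03, 1.14 and 1.23, against -0.10, -0.55, -0.28 and 0.05 in K1. On array 4 of K1, K2 and K4 and array 1 of K2 the heat shock mean holds 3 genes, since Hspa1a or Hspa8 was blank. Without array 3 of K3 and array 1 of K4 the mean gap over mice was 0.84. In both orientations and in both pairs of arrays (1 and 2, 3 and 4) K1 had the highest heat shock mean and the lowest Cirbp, and K3 the lowest heat shock mean and the highest Cirbp. These subsets of arrays share the RNA of the same mice.

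Across the 16 arrays Cirbp ran opposite to each heat shock gene. Pearson's r was -0.76 with Hspa1a (13 arrays), -0.66 with Dnajb1 (16), -0.63 with Hsph1 (16) and -0.60 with Hspa8 (15), and Spearman's rho lay between -0.85 and -0.69. With the mean of the 4 genes r was -0.73 and rho -0.83, and r was -0.73 without array 3 of K3 and array 1 of K4. The arrays of a mouse share its RNA and all arrays share the pool, so these are descriptions of 16 arrays of 4 animals and not of 16 independent samples. On the 12 arrays with all 4 genes measured r was -0.83, and without K3 it was -0.58.

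The opposition lay between mice and was not seen among arrays of 1 mouse. After the mean of its mouse was taken from each value, r between Cirbp and the heat shock mean was 0.21. That was over all 16 arrays, including those with 3 of the 4 heat shock genes measured. Gene by gene this r was 0.16 for Hspa1a, -0.09 for Hspa8, 0.23 for Dnajb1 and 0.30 for Hsph1. Thus the negative relation rests on 4 animals, too few for a correlation across samples. Among the heat shock genes, the r within mice was 0.65 for Hspa8 and Hsph1 (0.89 over all arrays) and 0.50 for Dnajb1 and Hsph1 (0.84). For Hspa1a it was -0.73 with Hsph1, -0.53 with Hspa8 and -0.07 with Dnajb1, against 0.56, 0.45 and 0.83 over all arrays. Since the arrays of a mouse hold the same RNA, an r within mice describes differences between hybridisations, orientation included. It does not describe changes in transcript level.

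**Figure D2:**
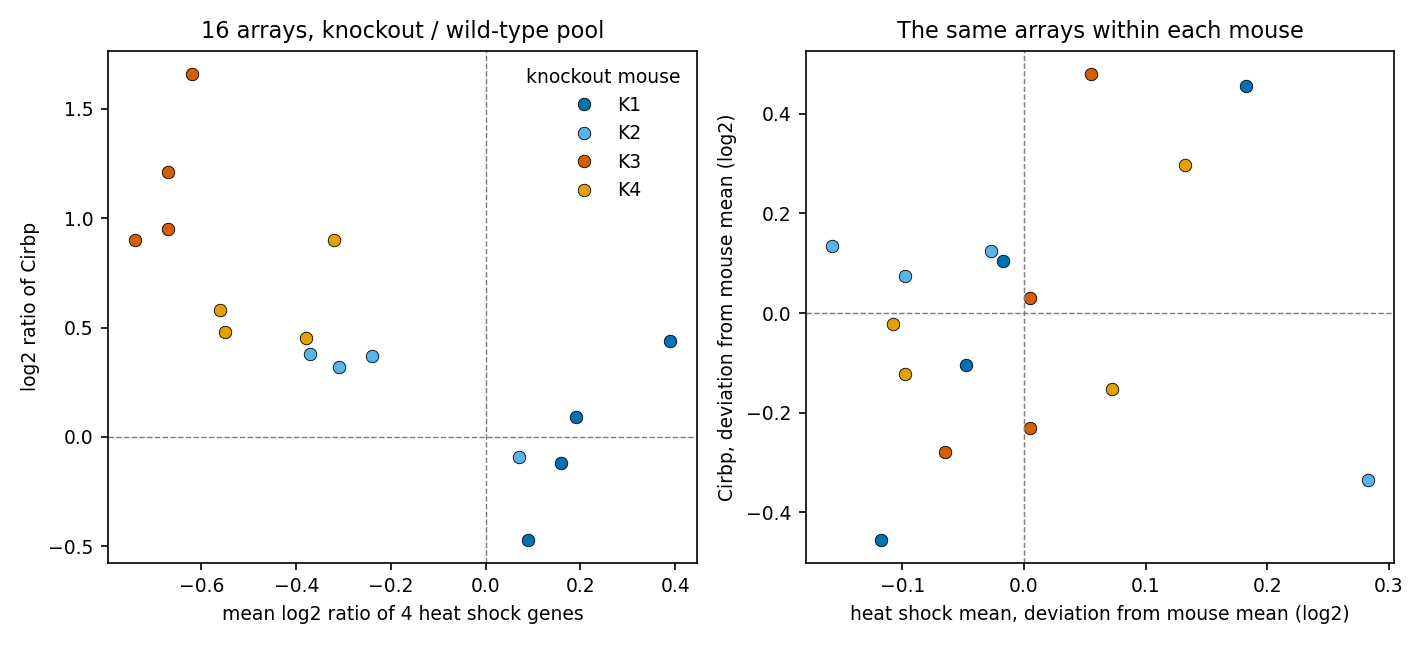
Left, log2 ratio of Cirbp (vertical axis) against the mean log2 ratio of the 4 heat shock genes (horizontal axis) on 16 arrays, coloured by knockout mouse, with r = -0.73. Right, the same arrays as deviations from the mean of their mouse, with r = 0.21.

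The same measures over all genes give the background. In the fit over all genes (limma, Benjamini-Hochberg adjusted p under 0.05), 0.21% of 6191 genes passed against the pool, 4 higher and 9 lower, and 0 of the 5 genes did, while 1041 genes were at an unadjusted p under 0.05. Between mice, 2.54% of genes passed the moderated F test. Its error is the spread between arrays of 1 mouse, which are technical replicates, so its p compares these 4 RNA samples only. All 5 genes were among those that passed. Since they were chosen on these values, nothing is read from that count. All measured arrays of K3 lay below all of K1 for the 4 heat shock genes and for 6.54% of genes, and above them for Cirbp and for 5.64% of genes. By their SD between mice Cirbp (0.52), Hspa1a (0.51) and Dnajb1 (0.46) ranked 33, 35 and 42 of 6191, and Hspa8 (0.36) and Hsph1 (0.31) 81 and 130, with a median of 0.10 over all genes. Within mice the SD of arrays was 0.30 for Cirbp, 0.25 for Hspa1a and Dnajb1 and 0.15 for Hspa8 and Hsph1.

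The likeness of other genes to Cirbp was measured by Pearson's r over at least 14 arrays, for 4823 genes. An r to Cirbp of -0.60 or lower, the value of Hspa8 and the weakest of the 4, was found for 3.26% of genes, and 5% of genes lay below -0.55. The 5 genes most like Cirbp were Azgp1, which encodes zinc-alpha-2-glycoprotein (r = 0.93), Rpsa of the small ribosomal subunit (0.88), the nuclease gene Dnase1 (0.86), Gamt of creatine synthesis (0.85) and Gas1 (0.85). Azgp1 stood at -0.57, -0.60, 0.52 and 0.09 in K1 to K4, below the pool in both K1 and K2, whereas Gamt ran at -0.37, 0.25, 1.07 and 0.56. The 5 with the most opposite pattern were Tmem106b (-0.82), the kinase gene Pim3 (-0.81), and Fam114a2, Cd24a and 4921524J17Rik (-0.80 each). None of these is a heat shock gene of the lists used here. Pim3 had 0.18, -0.15, -0.63 and -0.36 in K1 to K4.

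Likeness to the heat shock mean gave the potassium channel gene Kcnk5 (r = 0.96), Mpv17l (0.93), the methyltransferase gene Nsd3 (0.90), Timm17a of mitochondrial import (0.86) and Prrt3 (0.86). Kcnk5 stood at 0.24 in K1, -0.17 in K2, -0.41 in K3 and -0.32 in K4, so it followed the chaperone genes at a smaller size. At the opposite end stood Gtf2ird2 (-0.94), Gamt (-0.91), the receptor kinase gene Erbb3 (-0.91), Ucma (-0.90) and the kinase gene Mark3 (-0.89), each with a lower r to the heat shock mean than Cirbp (-0.73).

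**Figure D3:**
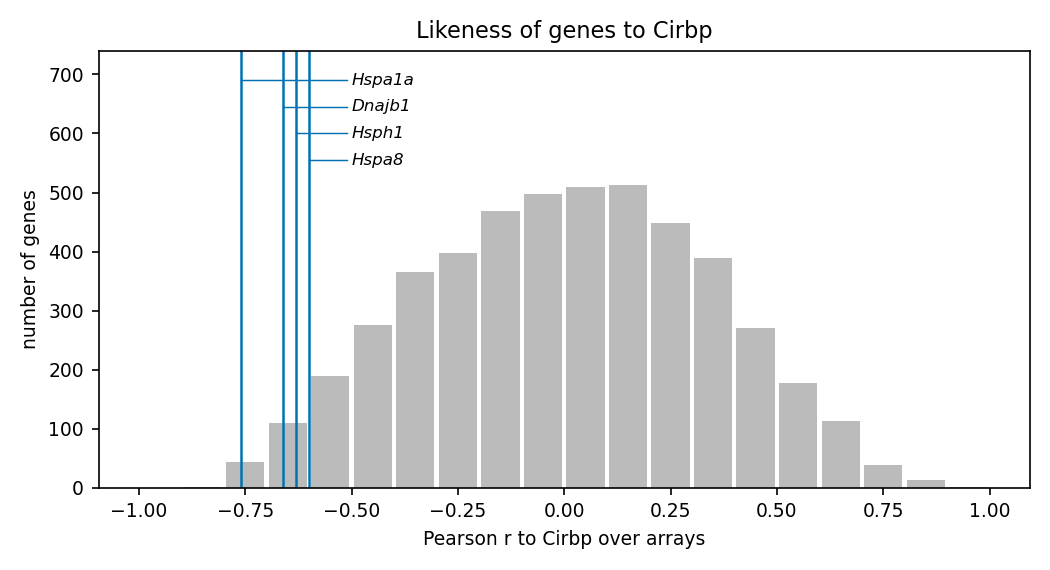
Number of genes (vertical axis) by their Pearson r to Cirbp over arrays (horizontal axis, bins of 0.1), for 4823 genes with values on at least 14 arrays. Blue lines mark the 4 heat shock genes (Hspa1a on its 13 arrays), between -0.76 for Hspa1a and -0.60 for Hspa8.

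The same order of mice was found in a group of 30 probes that share 1 profile, with medians of -0.46, 0.30, 1.03 and 0.61 in K1 to K4. They are the probes with an r above 0.9 to 1 central probe among those past the test between mice, 11 of them carry a gene name, among them Gamt, and 19 have probe numbers from 15318 to 15629. The r with this profile was 0.83 for Cirbp, -0.83 for Hspa1a, -0.76 for Hspa8, -0.86 for Dnajb1 and -0.81 for Hsph1. The Hsph1 probe, number 15490, lies within that run of numbers, and the other 4 genes' probes lie outside it. None of the 5 probes belongs to the group. What the shared profile contributes to the values of Cirbp and the chaperones was not tested.

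Among the markers of other tissue and of kidney tubule, Svs5, Fabp4 and Umod differed between the mice. Svs5, a seminal vesicle secretion gene and the 1 of 10 listed male accessory gland genes with a probe, stood at 0.21 in K1, -0.09 in K2, 4.94 in K3 and 1.09 in K4, with 4.07 to 5.75 on the arrays of K3. Its r was 0.79 with Cirbp and -0.78 with the heat shock mean over 12 arrays. Umod, the thick limb marker uromodulin, stood at -0.14, -0.33, 0.19 and 0.27 in K1 to K4 and passed between mice (adjusted p = 0.0125 in limma's F test). The other 4 tested tubule markers, Lrp2, Kap, Miox and Aqp2, did not pass. Of the adrenal, erythroid and leukocyte markers 2, 2 and 6 were tested and none passed, and of 3 adipose markers Fabp4 did (adjusted p = 0.0108), with -0.11, 0.34, 0.02 and -0.47 in K1 to K4. Ratios give no level, so the labelled tissue could not be checked beyond these markers carrying values. The part of attached tissue in the values of the 5 genes was not tested, and in whole kidney fewer cells of a type and less RNA per cell cannot be told apart.

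Other inducible heat shock genes, nearly all of them cytosolic, gave a mixed picture. Of 21 listed genes 14 were measured and 13 tested, none passed against the pool, 8 had a negative ratio (median -0.06, against 0.00 over all genes) and 4 were at an unadjusted p under 0.05, against 1041 of all 6191. Between mice, 6 of the 13 were at an unadjusted p under 0.05, against 844 of all 6191, and Dnajb4, a J-domain protein related to Dnajb1, was the 1 gene that passed (adjusted p = 0.00933, limma's F test). It stood at 0.29 in K1, -0.05 in K2, -0.33 in K3 and -0.06 in K4, and its r was 0.85 with the heat shock mean and -0.75 with Cirbp. It did not pass without K1 or without K3, nor on either pair of arrays alone.

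Several listed genes were likewise highest in K1 and lowest in K3 without passing. The Hsp70 co-chaperone gene Bag3 had 0.10, -0.15, -0.29 and -0.21 in K1 to K4 (adjusted p = 0.127 between mice) and an r of 0.82 to the heat shock mean. The stress-inducible Hsp90 gene Hsp90aa1 had -0.02, -0.10, -0.37 and -0.16 (0.325), with an r of 0.76. Serpinh1, the collagen chaperone HSP47, which resides in the endoplasmic reticulum, had -0.08, -0.28, -0.65 and -0.28 (0.203) and stood lowest of the list at a mean of -0.32. Others did not share the pattern: the small heat shock gene Hspb8 stayed between -0.03 and 0.15, the co-chaperone Stip1 between 0.03 and 0.04, and Hspa1l, the testis relative of Hspa1a, was lowest in K1 (-0.24). Over the 10 genes of the list with 14 or more arrays the median r was 0.45 to the heat shock mean and -0.54 to Cirbp, against 0.02 and 0.01 over all tested genes with as many. K3 was below K1 in 9 of the 13, against 3045 of all 6191 genes.

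**Figure D4:**
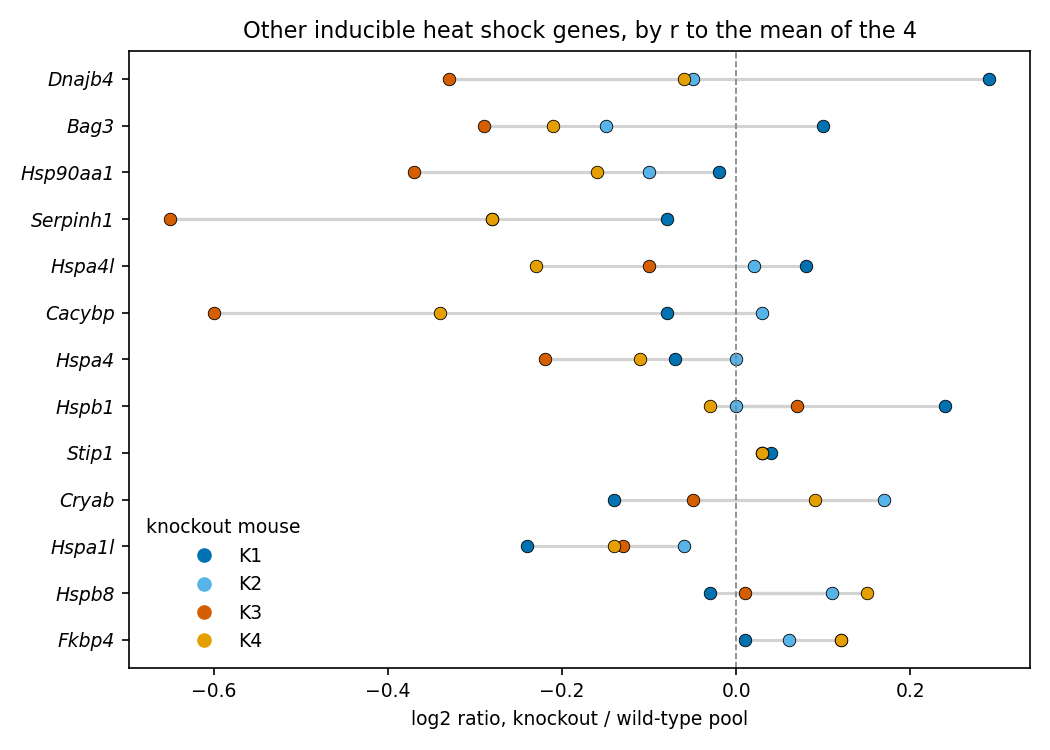
Log2 ratio of knockout kidney over the wild-type pool (horizontal axis) in each knockout mouse for the 13 other inducible heat shock genes tested, ordered by their r to the mean of the 4 chaperone genes. Dnajb4, at the top, ran from -0.33 in K3 to 0.29 in K1, and Stip1 stayed within 0.03 to 0.04.

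Lists of other chaperones gave no call. No gene of the constitutive cytosolic Hsp70 partners (11 tested), the cytosolic TRiC chaperonin (6), the mitochondrial chaperones (8) or the endoplasmic reticulum chaperones (16) passed either test. At an unadjusted p under 0.05 there were 0, 2, 1 and 8 of them against the pool and 1, 0, 2 and 5 between mice, in this order, against 1041 and 844 of all 6191 genes. All 6 TRiC subunits had a negative ratio (median -0.07), with Cct2 and Cct5 at -0.13 each, and Hspe1, the mitochondrial co-chaperonin, stood at -0.21 (adjusted p = 0.207 against the pool). In the constitutive group 8 of 11 were negative (median -0.04), with Hspa14 at -0.13, Hspbp1 at 0.10 and Dnajb6 at -0.04, and Lonp1 and Clpb of the mitochondria at 0.05 and 0.08. The endoplasmic reticulum genes were negative in 13 of 16 (median -0.16), against 3205 of all 6191 genes, and K3 was below K1 in 13 of the 16, against 3045 of all genes.

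Members of that list differed in how the mice compared. Pdia6, a disulfide isomerase, had -0.34, -0.21, -0.36 and -0.30 in K1 to K4 (adjusted p = 0.0704 against the pool and 0.854 between mice). Hsp90b1, the Hsp90 of the endoplasmic reticulum, had -0.25, -0.21, -0.39 and -0.34 (0.0835 and 0.752). The transcription factor gene Xbp1 ran as Cirbp did, with -0.20, -0.04, 0.41 and 0.09 in K1 to K4 and an r of 0.74 to it, just short of passing between mice (0.0559), and the lectin chaperone Canx ran the other way, with -0.03, 0.02, -0.37 and -0.33 (0.154). Creld2 was highest in K1 and lowest in K3, as Dnajb4 was, with -0.03, -0.17, -0.54 and -0.37 in K1 to K4 (0.159 between mice) and an r of 0.84 to the heat shock mean.

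Other cold-inducible or cold shock domain genes gave little to set beside Cirbp. Rbm3, the other well-known cold-inducible RNA-binding gene, had no probe annotated to it alone. Of 4 tested genes with a cold shock domain or a related role none passed either test, with 1 at an unadjusted p under 0.05 against the pool and 0 between mice: Ybx1 stood at -0.18 (adjusted p = 0.174 against the pool), Csdc2 at 0.09, Carhsp1 at 0.05 and Ybx2 at 0.10. K3 was below K1 in 0 of the 4, against 3045 of all 6191 genes, with Csdc2 at 0.26 in K3 and 0.03 in K1. Their r to Cirbp was 0.10 for Ybx1, -0.03 for Ybx2, 0.45 for Carhsp1 and 0.50 for Csdc2.

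Clock and immediate early genes, which respond to time of day and to handling, also showed no call. Of 20 listed circadian genes 12 were measured and 8 tested, and of 17 listed immediate early genes 12 were measured and 7 tested. Dbp, Nr1d1, Nr1d2 and Per3 of the circadian list lacked the values to be tested. So did Jun, Klf4, Klf6, Nr4a1 and Btg2 of the immediate early list. Of 8 circadian genes tested none passed, with 4 at an unadjusted p under 0.05 against the pool and 3 between mice (1041 and 844 of all 6191 genes): the clock output gene Hlf had 0.28, 0.17, 0.57 and 0.15 in K1 to K4 (adjusted p = 0.148 against the pool, 0.193 between mice), Cry1 had 0.18, 0.13, 0.22 and 0.18 (0.148 and 0.966), and Bhlhe40 had 0.18, -0.14, -0.23 and -0.12 (0.576 and 0.292). Per1 stood at 0.32 in K1 and between 0.02 and 0.07 in the other mice (0.585 between mice). Of 7 immediate early genes tested none passed and 0 were at an unadjusted p under 0.05 in either test, with Ier3 at 0.14, Fosb at 0.04 and Dusp1 at -0.05.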

How the data were processed

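Kidney cDNA carried Cy3 or Cy5 through an indirect labelling protocol, and images from a GenePix 4000A scanner were read with GenePix Pro 3.0, as the labels state. Mean intensities less background were scaled by the authors to a median ratio of 1 on each array, per the labels. The deposited values are log2 ratios, 1 per probe and array; the base was taken from the values, since 44.7% of 720 distances between repeated values were log2 of ratios of small integers, against 0.1% for natural logarithms. No source used here gives the filter that left some cells blank or the dye of each channel, and blanks stayed blank.

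Values were signed to knockout over pool and centred on the array median. A probe was tested if every mouse had a value in each orientation, and a gene was the mean of its probes annotated to it alone (11723 of 20205 probes). The value of a mouse was the mean of its orientation means. The ratio against 0 over 4 mice and a moderated F test between mice with an orientation term were fitted over all genes with limma 3.58.1 in R 4.3.3, with Benjamini-Hochberg adjustment. A test against 0 leaves out the spread of the pooled wild-type mice. Both fits were run on simulated data with independent noise on each array and no dye, pool or shared-array effect. That run checks the fits in that setting only. The genes and lists were chosen with earlier results of these data known. Genes named were the members, list genes past a test or with the 2 smallest p of either test, the 5 most and least like Cirbp and the 5 most like the heat shock mean. Other list and marker genes (Hsp90aa1, Hspb8, Stip1, Per1, Csdc2, Carhsp1, Creld2, Umod, Fabp4, Lrp2, Kap, Miox and Aqp2) and the 5 genes least like the heat shock mean were named after their values were seen. Alternatives covered centring, quantile normalisation, blanks, orientation, array pairs and leaving out mice, and 3 alternatives (2 arrays left out, arrays with all 4 genes, and which probe is central to the shared profile) were chosen after seeing the data.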

Additional observations from a re-analysis of the deposited data

Results flagged for a closer look

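Ybx2, a cold shock domain gene, had 1 mouse far from the others: its log2 ratio of knockout over pool was 0.28 in K2, against 0.02 to 0.06 in K1, K3 and K4. It was the 1 such case among 51 groups of 4 mice looked at, and chance gives about 1 in 20. Ybx2 did not pass between mice (adjusted p = 0.505, limma's F test). By this share of the range, neither Cirbp nor any of the 4 chaperone genes had a mouse as far from the rest. The share does not measure the size of a gap in log2 units, which was larger for Cirbp, with 1.18 in K3 and 0.60 in K4.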

How the results depend on the processing

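The mean log2 ratio of each of the 5 genes moved by less than 1 SD between mice under each scaling, array subset and left-out mouse that was run, and kept its sign there, with no value for Hspa1a on either pair of arrays and none for Hspa8 on arrays 3 and 4. Cirbp minus the heat shock mean (0.81) was 0.67 to 0.89 over the scalings and array subsets (with a heat shock mean of 3 genes on arrays 1 and 2, and of 2 genes on arrays 3 and 4 and with values on all arrays), 0.46 (without K3) to 1.15 (without K1) when a mouse was left out, and -0.81 with the ratio read as channel 2 over channel 1. With a mouse left out, the r of Cirbp with the heat shock mean (-0.73) ran from -0.77 (without K4) to -0.58 (without K3). It was -0.59 after quantile normalisation, -0.62 and -0.92 with knockout RNA in channel 1 and channel 2 only, -0.89 on arrays 1 and 2, -0.62 on arrays 3 and 4, -0.83 as Spearman's rho, -0.60 for Hspa8 alone, -0.63 for Hsph1 alone and -0.83 on the arrays with all 4 genes. It reversed to 0.21 among deviations from the mouse mean. The causes of these shifts were not tested.

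The count against the pool (13) was 40 with probes that have values on every one of the 16 arrays. It was 1 on arrays with knockout RNA in channel 2, 4 on arrays 1 and 2, and 8 on arrays 3 and 4. With a mouse left out it ran from 1 (without K2) to 6 (without K3). With mouse as a random block it was 401, with 3 of the 5 genes. That fit put the correlation within a mouse at 0.0532 for all genes, so it took the 16 arrays nearly as independent samples. Nothing is read from its calls, here or in the lists below. The count between mice (157) was 41 (without K1 or K3) to 135 (without K4), 31 on arrays 1 and 2, 22 on arrays 3 and 4, 97 without array 3 of K3 and array 1 of K4, and 245 for probes. Of the 5 genes, 1 passed without K1 (41 of 6551 genes tested), 2 without K3 (41 of 7285), 2 of 4 tested on arrays 1 and 2 (31 of 4305) and 1 of 3 tested on arrays 3 and 4 (22 of 3576). Because the 5 genes were chosen on these values, their passing or failing here is no test of them. The endoplasmic reticulum list had 2 genes past the test against the pool after quantile normalisation, 2 with probes valued on all arrays and 8 with the random block, under which 4 of 8 circadian genes, 1 cold shock gene and 1 inducible heat shock gene also passed. No paired analysis was possible because the wild-type RNA was 1 pool. The r over 4 mouse means was not run, and single probes gave nothing further, since each of the 5 genes has 1. Blank values limit Hspa1a to 13 arrays, and no intensities were used here to set signal over background.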
